A study of Mus musculus with 6 samples.

Results

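The genes described here are 44 cell cycle genes of S phase, mitosis and the G1/S transition, chosen by symbol from a gene table of 15442 genes; all 44 were found and all 44 passed the filter on low counts. They were grouped by role: 10 DNA replication genes (Mcm2 to Mcm7, Pcna, Rrm1, Rrm2 and Tyms), 5 other S phase genes, 18 mitotic genes, 9 regulators of the G1/S transition, and Stmn1 and Hmgb2. RNA was sequenced from cells sorted for green fluorescence of a Foxp3 reporter from livers of Foxp3-GFP mice, in 3 libraries labelled AIH, for modelled autoimmune hepatitis, in which immune cells damage liver tissue, and 3 labelled control. Foxp3 is the transcription factor of regulatory T (Treg) cells, which restrain other immune cells. All 6 libraries share the reporter; the way the disease was induced, the age and strain of the mice, and the number of animals or sorted cells behind each library are not given in these sources. No label ties the libraries to separate animals; the p-values here describe library-to-library spread, which may be technical. The comparison addressed how liver cells sorted for the reporter differ in the disease, and for these genes whether replication and mitotic transcripts differ together.

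A cell that divides first licenses its replication origins in G1 by loading the MCM helicase, then copies its DNA in S phase with nucleotides from ribonucleotide reductase and thymidylate synthase, and then enters mitosis under cyclin B and Cdk1. Transcription of S phase genes is set largely by E2F factors, which RB-family proteins hold in check until cyclin D kinases act. Mitotic genes are held back in resting cells by the DREAM complex at an element called CHR and come on later, in G2. Mature T cells rest in G1/G0 until antigen and interleukin-2 drive them into the cycle, and Treg cells in inflamed tissue are known to divide.

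The S phase and mitotic genes also differ in promoter sequence, which the choice of the genes did not use. RefSeq promoter windows (build GRCm38.p6, 250 bases before to 50 after the start, first listed start of a gene) were found for 36 of the 44 genes. Searched on both strands were the E2F words TTTCCCGC, TTTCGCGC, TTTGCCGC and TTTGGCGC, the CHR word TTTGAA and the CCAAT box CCAAT; matches of one motif may overlap. An E2F word stood in 4 of 9 replication promoters (44.4%), 3 of 4 of the other S phase promoters and 1 of 15 mitotic promoters (6.67%), against 2.32% of all 27025 promoters and 4.31% of the 9021 promoters of genes tested here. CHR stood in 10 of 15 mitotic promoters (66.7%) and 1 of 9 replication promoters (11.1%), against 18.1% of all promoters and 12.7% of those of genes tested. CCAAT stood in 8 of 9 replication and 13 of 15 mitotic promoters, against 37.9% of all promoters. A match describes these letters only and is no evidence of binding. Printed here are examples: 2 mitotic promoters with a CHR word and 2 replication promoters with an E2F word. They run 5′ to 3′ on the gene's strand, with matches in capitals. The windows are Cdk1 at chr10:69352863-69353162 (minus strand), Ube2c at chr2:164769679-164769978 (plus strand), Mcm5 at chr8:75109259-75109558 (plus strand) and Mcm6 at chr1:128359656-128359955 (minus strand). All are in GRCm38.p6.
Cdk1: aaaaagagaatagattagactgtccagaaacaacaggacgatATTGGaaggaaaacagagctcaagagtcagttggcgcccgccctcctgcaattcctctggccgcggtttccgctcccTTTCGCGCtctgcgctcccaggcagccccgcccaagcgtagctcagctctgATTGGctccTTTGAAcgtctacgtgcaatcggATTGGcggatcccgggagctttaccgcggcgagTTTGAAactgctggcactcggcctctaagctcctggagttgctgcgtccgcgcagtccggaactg
Ube2c: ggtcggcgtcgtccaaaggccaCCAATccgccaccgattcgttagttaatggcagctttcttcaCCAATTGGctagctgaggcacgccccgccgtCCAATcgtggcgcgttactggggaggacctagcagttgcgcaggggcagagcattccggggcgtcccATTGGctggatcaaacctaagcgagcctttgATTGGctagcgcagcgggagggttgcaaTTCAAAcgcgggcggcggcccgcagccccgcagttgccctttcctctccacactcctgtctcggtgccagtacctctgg
Mcm5: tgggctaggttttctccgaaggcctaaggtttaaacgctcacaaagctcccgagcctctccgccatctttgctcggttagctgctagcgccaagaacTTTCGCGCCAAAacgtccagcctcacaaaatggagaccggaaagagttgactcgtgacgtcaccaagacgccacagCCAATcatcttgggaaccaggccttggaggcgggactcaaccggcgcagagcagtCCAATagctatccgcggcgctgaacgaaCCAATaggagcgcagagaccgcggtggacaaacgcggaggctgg
Mcm6: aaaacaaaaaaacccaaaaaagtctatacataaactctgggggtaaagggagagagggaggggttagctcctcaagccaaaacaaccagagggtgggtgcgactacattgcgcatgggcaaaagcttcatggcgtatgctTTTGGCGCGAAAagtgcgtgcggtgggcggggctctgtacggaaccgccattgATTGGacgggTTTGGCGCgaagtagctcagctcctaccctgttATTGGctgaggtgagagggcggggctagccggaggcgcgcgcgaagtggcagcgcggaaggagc
In Cdk1, CHR words began 71 and 15 bases before the start, and 1 E2F word lay farther upstream. Ube2c carried 1 CHR word, on the opposite strand 29 bases before the start, behind 6 CCAAT boxes. Mcm5 and Mcm6 carried no CHR word; in both, an E2F word on one strand overlapped one on the other strand. Not all leading mitotic genes share the CHR word: the windows of Ccnb1 and Nusap1 held none, and that of Nusap1 held none of the motifs searched. Nor do all replication genes share the E2F words: the windows of Mcm2, Pcna, Rrm1, Rrm2 and Tyms held none.

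Library totals ran from 17780509 to 24572388 expected counts, so 3 counts, taken as the floor of detection, correspond to 0.115 to 0.160 CPM (counts relative to the TMM-scaled library size); the reads carry no molecular identifiers, so floors cover counting error only. On the first principal component, which held 33.2% of the variance, AIH 1 and Control 3 were the outermost libraries. Foxp3 itself, the gene behind the sort, was at 0.267, 4.13 and 1.56 CPM in the libraries labelled AIH and 16.8, 14.1 and 38.3 CPM in the control libraries, lower in every library labelled AIH, so directions rest on the labels. The other genes of the Treg list did not share this: Tnfrsf18, a costimulatory receptor, was at 1503 to 2301 CPM in AIH against 291 to 701 CPM in control, and log2 fold changes were 0.49 for Ikzf2, 0.43 for Ctla4 and −0.04 for Il2ra, with overlapping groups. The 5 Treg genes summed to 2956 to 3695 CPM in AIH against 1321 to 1873 CPM in control. The T cell genes Cd3d, Cd3e, Cd3g, Cd2 and Lck summed to 6618 to 8345 CPM in AIH against 2983 to 4550 CPM in control, and all were present in every library. Markers of macrophages and Kupffer cells, 12 genes, summed to 386 to 2706 CPM in AIH against 3479 to 15599 CPM in control, with none at 0 in any library, 2 at 3 counts or fewer in AIH 1, and 10 of 12 lower in every AIH library than in every control. Markers of endothelial and stellate cells, 8 genes, summed to 27.1 to 39.2 CPM in AIH against 54.8 to 91.4 CPM in control, with 5 of 8 at 0 in AIH 1. Markers of neutrophils and red blood cells, 6 genes, summed to 21.8 to 216 CPM in AIH and 78.3, 86.5 and 2802 CPM in control. The value of Control 3 rested on the hemoglobin genes Hba-a1 (1113 CPM) and Hbb-bs (1666 CPM). Of 6 genes of CD8 T cells and natural killer cells, Cd8a was at 46.8 to 132 CPM in AIH against 9.99 to 26.3 CPM in control. The groups overlapped in the others, among them Cd8b1 at 75.1 to 177 CPM in AIH and 27.9 to 97.4 CPM in control. Log2 fold changes were positive in 4 of the 6 and negative in 2. The 6 summed to 149 to 382 CPM in AIH against 119 to 224 CPM in control, with overlap.

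None of the 44 genes passed an adjusted p of 0.05 in edgeR's quasi-likelihood test, adjusted by Benjamini-Hochberg over all 11140 genes tested, where 0.0898% of genes were called (0.0808% higher and 0.00898% lower in AIH). At an unadjusted p under 0.05, 6 of the 44 were higher in AIH and none lower, against 8.27% of all genes tested in either direction (4.42% higher, 3.85% lower). DESeq2's Wald test called none of 43, with 7 at an unadjusted p under 0.05. Of the 44, 24 had log2 fold changes (AIH minus control) above 0, and the median was 0.10, beside −0.041 and 48.1% positive over all genes tested. In 7 genes, or 15.9%, every AIH library lay above every control, and in none below; over all genes tested the groups did not overlap in 17.3%, AIH being higher in 8.46% and lower in 8.87%. The share of non-overlapping genes in either direction was thus near the background. All 7 lay in 1 direction, where the background was 8.46%. The genes were chosen with earlier results known, so this direction was not tested. The 7 were Ccnb1, Cdk1, Ube2c, Nusap1 and Cenpa of the mitotic group and Ccnd2 and Cdkn1b of the G1/S regulators. None of the 15 replication and other S phase genes was among them. In bulk samples, a difference in the share of dividing cells and a difference in transcript per cell cannot be told apart.

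**Figure D1:**
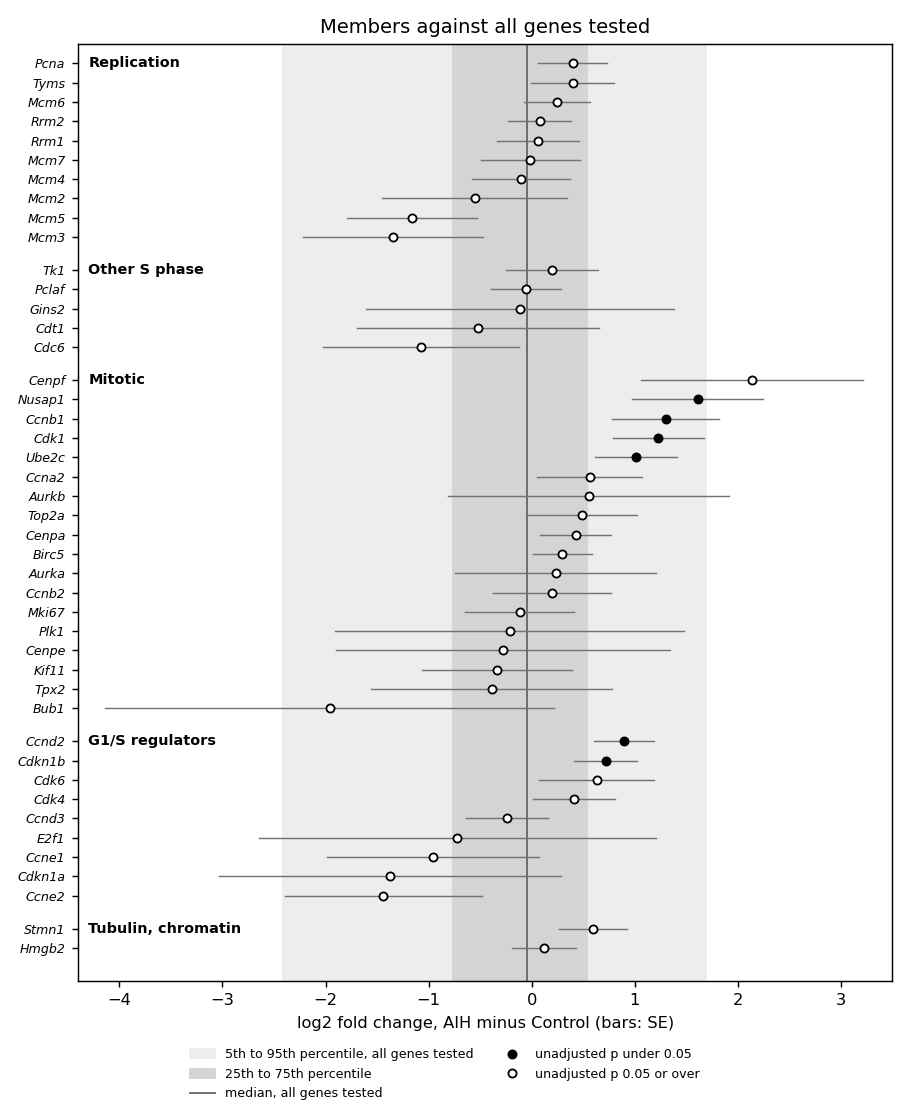
Log2 fold change of each of the 44 genes (AIH minus control, points) with its approximate SE (bars), by role, over shaded percentiles of all 11140 genes tested. Filled points mark the 6 genes at an unadjusted p under 0.05, 4 of them mitotic and 2 regulators of G1/S; no replication gene is filled.

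No replication gene passed the adjusted p, and the groups overlapped in each of the 10. Of 10 log2 fold changes 5 were positive, with a median of 0.03 (−0.17 with library totals as the scaling, which moved the median of all genes to −0.23) and a range from −1.35 to 0.40. Pcna, the sliding clamp of DNA polymerase, was at 529, 324 and 247 CPM in AIH and 308, 212 and 314 CPM in control. AIH 1 stood above the rest and the other libraries of both groups overlapped. The log2 fold change was 0.40 (SE 0.34), with an adjusted p of 0.834 by edgeR's quasi-likelihood test, and 0.04 without AIH 1. Rrm1 and Rrm2 encode the large and the small subunit of ribonucleotide reductase, which makes deoxynucleotides. Rrm1 was at 103, 62.4 and 121 CPM in AIH and 88.1, 123 and 63.8 CPM in control. Rrm2 was at 170.1, 152 and 108 CPM in AIH and 125, 159.9 and 122 CPM in control. The groups overlapped almost wholly for Rrm1 and Rrm2, with log2 fold changes of 0.06 (SE 0.40) and 0.08 (SE 0.31), which were −0.13 and −0.11 with library totals as the scaling. Tyms, the thymidylate synthase, was at 127, 107 and 75.7 CPM in AIH and 102, 85.6 and 47.5 CPM in control, a log2 fold change of 0.40 (SE 0.40). Its lowest value was in Control 3, and it was 0.14 on the log2 scale without that library.

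The 6 MCM genes encode the subunits of 1 ring-shaped helicase, and their transcripts varied between libraries to different extents. Mcm6 was at 105, 100.3 and 123 CPM in AIH and 86.3, 111 and 79.3 CPM in control, the narrowest range of the 10 genes (highest over lowest library 1.55-fold). Mcm4 was at 143, 35.8 and 96.8 CPM in AIH and 105, 103 and 87.9 CPM in control. Mcm7 was at 49.9, 41.0 and 30.8 CPM in AIH and 47.1, 28.9 and 46.8 CPM in control. Their log2 fold changes were 0.25 (SE 0.32), −0.10 (SE 0.48) and −0.01 (SE 0.48), and the groups overlapped in each.
Mcm2, Mcm3 and Mcm5 had their highest level in Control 3. Mcm2 was at 29.6, 3.27 and 40.9 CPM in AIH and 21.2, 20.4 and 66.4 CPM in control. Mcm3 was at 6.61, 8.62 and 22.5 CPM in AIH and 13.1, 17.9 and 65.0 CPM in control. Mcm5 was at 11.6, 20.5 and 22.5 CPM in AIH and 21.0, 45.2 and 56.0 CPM in control. For Mcm5 the groups overlapped only between AIH 3 and Control 1. Log2 fold changes were −0.55 (SE 0.90) for Mcm2, −1.35 (SE 0.87) for Mcm3 and −1.16 (SE 0.63) for Mcm5, with adjusted p-values of 0.936, 0.755 and 0.695 by edgeR's quasi-likelihood test. Without Control 3 they were 0.25, −0.30 and −0.86, so the sign of Mcm2 and most of the size for Mcm3 rested on that library. Control 3 also had the highest macrophage sum and the most hemoglobin RNA. The part of RNA from these other cells was not tested. On the length-corrected TPM scale, Mcm6 averaged 31.6 ± 3.94 TPM in AIH and 30.0 ± 4.63 TPM in control, and Mcm5 4.60 ± 1.74 TPM in AIH and 12.1 ± 5.92 TPM in control (SD, n = 3 per group). Pcna was the most abundant of the 10 per length, at 269.9 ± 86.3 TPM in AIH and 244 ± 54.1 TPM in control (SD, n = 3 per group).

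**Figure D2:**
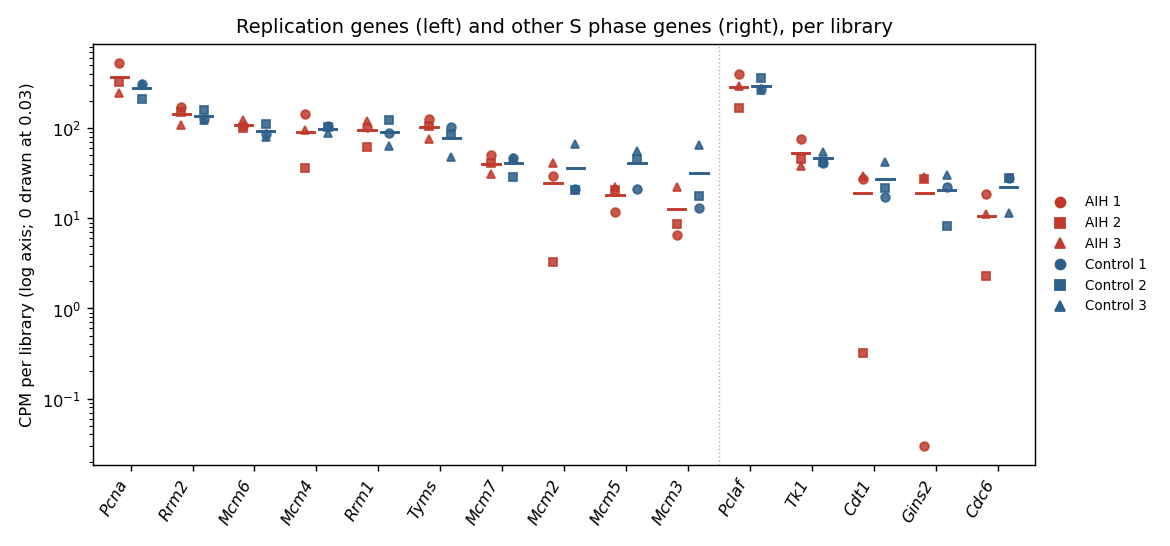
CPM of the 10 replication genes and 5 other S phase genes in each library on a log axis; symbols are libraries and bars group means, with AIH (red) left of control (blue). The groups overlap in all 15 genes; a value of 0 (Gins2 in AIH 1) is drawn at 0.03.

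Of the other S phase genes, the groups overlapped for all 5, with 1 positive log2 fold change and a median of −0.11. Pclaf, which encodes the PCNA-binding protein PAF15, was at 396, 168 and 297 CPM in AIH and 270.2, 361 and 264 CPM in control, a log2 fold change of −0.05 (SE 0.34). Tk1, the thymidine kinase of the salvage pathway, was at 75.1, 46.1 and 38.0 CPM in AIH and 41.6, 42.6 and 54.7 CPM in control, a log2 fold change of 0.20 (SE 0.45). Cdt1 and Cdc6 load the MCM ring onto origins, and Gins2 is a subunit of the GINS complex that activates it. Cdt1 was at 27.2, 0.318 and 29.2 CPM in AIH and 17.5, 21.9 and 41.8 CPM in control, so that AIH 2, with 7 counts, stood alone. Cdc6 was lowest in AIH 2 too, at 2.27 CPM, beside 11.2 and 18.5 CPM in the other AIH libraries and 11.4 to 28.1 CPM in control. Gins2 had no count in AIH 1, which allows up to 0.160 CPM, and 8.31 to 30.5 CPM in the other 5 libraries. Of the 15 S phase genes, 6 had their lowest level in AIH 2, namely Mcm2, Mcm4, Rrm1, Cdc6, Cdt1 and Pclaf.

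The mitotic genes were higher in AIH in more cases, with 12 of 18 log2 fold changes positive and a median of 0.36, against 48.1% positive and a median of −0.041 over all genes tested. That background shifted with level: at a mean of 20 CPM or more, 3253 of 5784 genes were positive, with a median of 0.11. The mitotic median rested on single libraries: it was −0.0023 without AIH 1 and Control 3 together, 0.18 without Control 3 and 1.02 without Control 2. The groups did not overlap in 5 of 18 (27.8%, AIH higher in each), against 17.3% of all genes tested in either direction and 8.46% with AIH higher. Cdk1, the mitotic kinase, was at 71.9, 82.0 and 86.9 CPM in AIH and 24.1, 50.7 and 28.2 CPM in control, so that the lowest AIH library was 1.42-fold above the highest control. Its log2 fold change was 1.23 (SE 0.44), with an adjusted p of 0.505 by edgeR's quasi-likelihood test. Ccnb1, its partner cyclin B1, was at 60.3, 87.3 and 62.2 CPM in AIH and 37.2, 13.1 and 34.9 CPM in control, a log2 fold change of 1.30 (SE 0.52) and an adjusted p of 0.555 by the same edgeR test. Ccnb1 has a named pseudogene that the gene table does not list, so its counts are less certain, as are those of Pcna, Tyms, Ccnb2 and Ccnd3. The second cyclin B gene did not share the pattern: Ccnb2 was at 123, 164 and 31.7 CPM in AIH and 140.4, 62.3 and 76.0 CPM in control, a log2 fold change of 0.20 (SE 0.57).

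Ube2c encodes the ubiquitin-conjugating enzyme of the anaphase-promoting complex, which destroys cyclin B to end mitosis. It was at 108, 85.7 and 91.1 CPM in AIH and 32.9, 43.8 and 64.4 CPM in control, a log2 fold change of 1.01 (SE 0.40) with an adjusted p of 0.535 by edgeR's quasi-likelihood test. Nusap1, a spindle protein that bundles microtubules, was at 60.6, 23.1 and 56.5 CPM in AIH and 14.4, 21.6 and 9.90 CPM in control, a log2 fold change of 1.61 (SE 0.64) and an adjusted p of 0.546 by that test. The margin between the groups was narrow for Nusap1, AIH 2 standing 1.07-fold above Control 2. Leaving out any 1 library kept the log2 fold changes of Cdk1, Ccnb1, Ube2c and Nusap1 positive, from 0.82 (Ube2c without Control 1) to 1.94 (Nusap1 without Control 2). Without AIH 1 and Control 3 together they were 1.17, 1.57, 1.20 and 1.15. All 4 were higher in the libraries with more T cell RNA, higher Cd8a, less macrophage RNA and lower Pecam1. The part of differences in cell makeup was not tested.

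The other mitotic genes at 50 CPM or more overlapped between the groups or nearly so. Birc5, or survivin, which belongs to the chromosomal passenger complex, was at 221, 167 and 191 CPM in AIH and 193, 146 and 132 CPM in control, a log2 fold change of 0.30 (SE 0.29). Cenpa, the histone H3 variant of centromeres, was at 226, 176 and 177 CPM in AIH and 175, 84.5 and 171 CPM in control. The groups of Cenpa were separated by a factor of only 1.01, and its log2 fold change of 0.43 (SE 0.35) was 0.15 without Control 2. Mki67, the proliferation marker Ki-67, was at 165, 47.2 and 46.5 CPM in AIH and 69.5, 116 and 95.2 CPM in control; AIH 1 was the highest library and the other 2 AIH libraries the lowest. Top2a, the topoisomerase that untangles chromosomes, ranged over 52.2, 93.2 and 126 CPM in AIH (lowest, median and highest) and 29.9, 52.1 and 112 CPM in control. Ccna2, the cyclin A of S phase and G2, was at 123, 64.3 and 80.7 CPM in AIH and 57.2, 97.4 and 26.8 CPM in control, in library order.

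The mitotic kinases other than Cdk1 and the large motor or kinetochore proteins were lower, with means under 50 CPM, and several were scattered. Aurkb, the kinase of the chromosomal passenger complex, was at 35.1, 24.0 and 49.5 CPM in AIH and 21.2, 52.8 and 0.0382 CPM in control, the last from a single count in Control 3. Bub1, a spindle checkpoint kinase, was counted 16, 195 and 2 times in AIH and 2, 731 and 10 times in control. Cenpe, a kinetochore motor, was counted 125, 735 and 3 times in AIH and 285, 708 and 18 times in control. Plk1, a kinase of mitotic entry and exit, was counted 2, 284 and 68 times in AIH and 52, 281 and 61 times in control. Bub1, Cenpe and Plk1 were thus high in AIH 2 and Control 2 and low in most of the others. Cenpf, a kinetochore protein, had the largest log2 fold change of the 44, 2.14 (SE 1.08), from 42.3, 9.62 and 37.6 CPM in AIH and 1.01, 14.6 and 4.78 CPM in control; the groups overlapped between AIH 2 and Control 2, and edgeR's quasi-likelihood test gave an adjusted p of 0.673. Aurka, Tpx2 and Kif11, which build the spindle, had log2 fold changes of 0.23, −0.39 and −0.34 with overlapping groups.

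**Figure D3:**
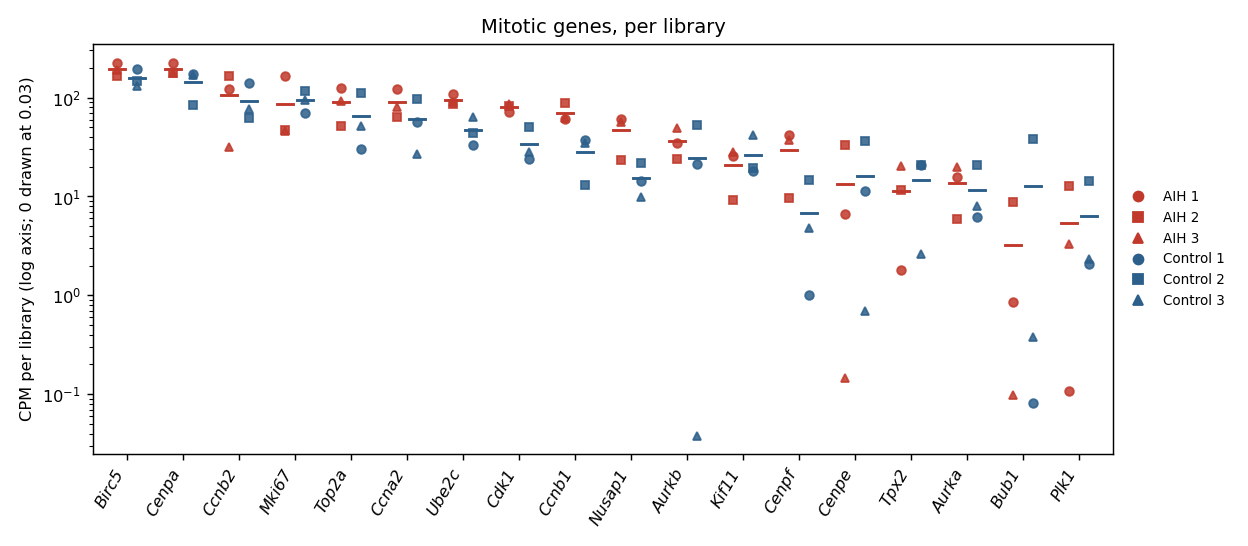
CPM of the 18 mitotic genes in each library on a log axis, ordered by mean level; symbols are libraries and bars group means, with AIH (red) left of control (blue). In Ube2c, Cdk1, Ccnb1, Nusap1 and, by a small margin, Cenpa every AIH library lies above every control, while low genes such as Bub1 and Cenpe scatter over more than 100-fold.

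Replication and mitotic genes were set against each other within each library by the mean of log2(CPM + 1) over the members of each group. The replication mean was 6.13, 5.54 and 6.10 in AIH and 5.99, 6.11 and 6.32 in control. The mitotic mean was 5.20, 5.20 and 5.02 in AIH and 4.47, 5.38 and 4.08 in control. AIH libraries were alike in the mitotic mean (SD 0.10), whereas the controls spread from the lowest to the highest of the 6 (SD 0.67). This mean weighs low, scattered genes as much as abundant ones. Among the controls, Bub1 had 2, 731 and 10 counts, and Aurkb had 1 count in Control 3. Replication minus mitotic was 0.93, 0.34 and 1.07 in AIH and 1.52, 0.73 and 2.24 in control. The groups overlapped because Control 2 lay below AIH 1 and AIH 3. The mean was 0.78 ± 0.39 in AIH and 1.50 ± 0.76 in control (SD, n = 3 per group), a difference of −0.72 that was −1.10 without Control 2, −0.34 without Control 3, −0.496 without AIH 2 and −0.41 without AIH 1 and Control 3 together. Its direction was the same in all of these, and its size rested on single libraries; as a score over chosen genes it is given without a test.

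Summed per length, the 18 mitotic genes reached 688, 665 and 581 TPM in AIH and 560.4, 497 and 548 TPM in control, so that every AIH library lay above every control. Control 2, with the highest mitotic mean of log2 levels, had the lowest mitotic sum, so its rank depended on the measure. The 10 replication genes summed to 545, 452 and 356 TPM in AIH and 440.2, 416 and 523 TPM in control, with AIH 1 highest and AIH 3 lowest. The ratio of the replication sum to the mitotic sum was 0.792, 0.679 and 0.613 in AIH and 0.785, 0.837 and 0.955 in control; the groups overlapped by the margin between AIH 1 and Control 1. These sums are carried by a few short, abundant transcripts. Birc5 averaged 196 ± 6.02 TPM in AIH and 186 ± 27.1 TPM in control, Cenpa 147 ± 26.2 TPM in AIH and 123 ± 49.5 TPM in control, and Ube2c 102 ± 4.58 TPM in AIH and 60.5 ± 24.4 TPM in control (SD, n = 3 per group). Control 3 had the lowest mitotic mean, the highest macrophage sum and the most hemoglobin RNA. AIH 1, with the lowest macrophage sum, was the library in which the most members, 18 of 44, had their highest level. A link between these was not tested.

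**Figure D4:**
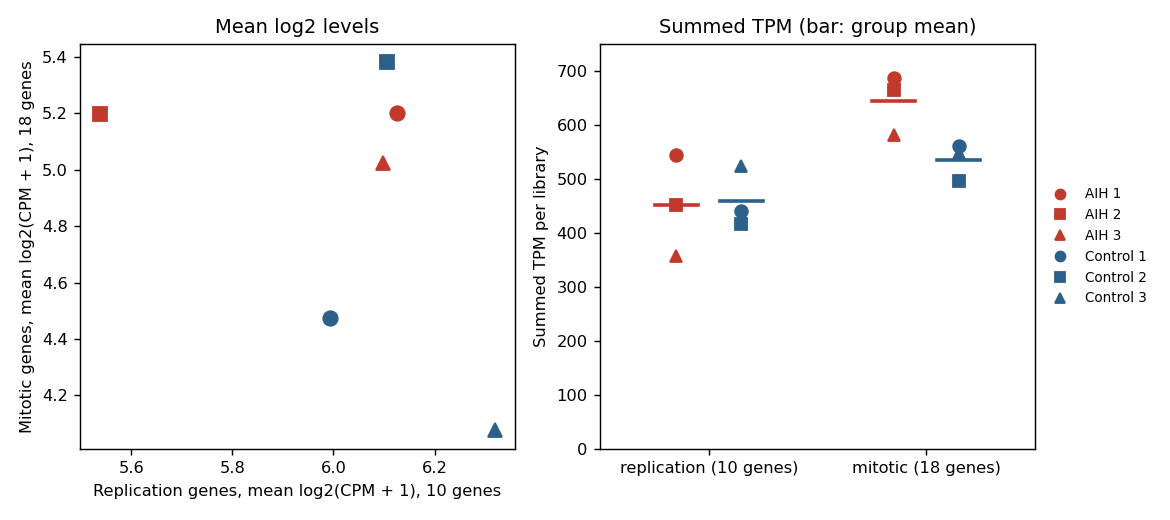
Left, mean log2(CPM + 1) of the 10 replication genes against that of the 18 mitotic genes in each library; right, summed TPM of both groups, with bars at group means and AIH (red) left of control (blue). The AIH libraries sit between 5.02 and 5.20 on the mitotic axis while the controls run from 4.08 to 5.38; in summed TPM the mitotic genes separate the groups and the replication genes do not.

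Of the 9 regulators of the G1/S transition none passed the adjusted p, 4 log2 fold changes were positive and the median was −0.24. The groups did not overlap in 2 of 9 (22.2%, AIH higher in both), against 17.3% of all genes tested in either direction and 8.46% with AIH higher. Ccnd2, the D-type cyclin that mitogens and interleukin-2 induce in lymphocytes, was at 440, 522 and 689 CPM in AIH and 223, 334 and 330.1 CPM in control. Each AIH library lay above each control by at least 1.32-fold. The log2 fold change was 0.90 (SE 0.29), and the adjusted p of 0.466 by edgeR's quasi-likelihood test was the lowest of the 44 genes. It lay between 0.69 without AIH 3 and 1.04 without AIH 1, and was 1.12 without AIH 1 and Control 3 together. Cdkn1b, which encodes p27, an inhibitor of cyclin-dependent kinases that is high in resting T cells, was at 306, 273 and 406 CPM in AIH and 187, 259.7 and 153 CPM in control, a log2 fold change of 0.72 (SE 0.30) and an adjusted p of 0.583 by edgeR's quasi-likelihood test. Here the margin between the groups was 1.05-fold.

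The kinases that D-type cyclins activate overlapped between the groups. Cdk4 was at 114, 293 and 176 CPM in AIH and 161, 98.0 and 181 CPM in control, a log2 fold change of 0.41 (SE 0.40). Without AIH 2 it was −0.010. Cdk6 was at 137, 144 and 165 CPM in AIH and 40.8, 197 and 51.0 CPM in control, so that Control 2 was the highest library and the other controls the lowest. Ccnd3, the other D-type cyclin of lymphocytes, was at 66.8, 43.8 and 45.1 CPM in AIH and 57.5, 65.4 and 60.8 CPM in control, a log2 fold change of −0.24 (SE 0.40). The cyclin E genes, which act with Cdk2 at the start of S phase, were low, Ccne1 at 1.32 to 18.02 CPM in AIH and 11.1 to 31.3 CPM in control, and Ccne2 at 2.29 to 23.5 CPM in AIH and 11.6 to 59.8 CPM in control. E2f1, an activator of S phase genes, stayed at or below 8.67 CPM in every library. Cdkn1a, which encodes the p53-induced inhibitor p21, was at 10.2, 1.18 and 5.94 CPM in AIH and 29.2, 15.6 and 0.0382 CPM in control, a span set by Control 3 with 1 count.

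Stmn1 and Hmgb2 are abundant in dividing lymphocytes, the first as a protein that destabilises microtubules and the second as a chromatin protein that bends DNA. Stmn1 was at 487, 326 and 289 CPM in AIH and 257, 309.6 and 161 CPM in control, a log2 fold change of 0.60 (SE 0.33), and only Control 2 reached into the AIH range. Hmgb2 was the most abundant member, at 2561, 1384 and 1730.1 CPM in AIH and 1929, 2083 and 1213 CPM in control, a log2 fold change of 0.12 (SE 0.31). Leaving out AIH 1 gave −0.16, and library totals as the scaling −0.075.

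**Figure D5:**
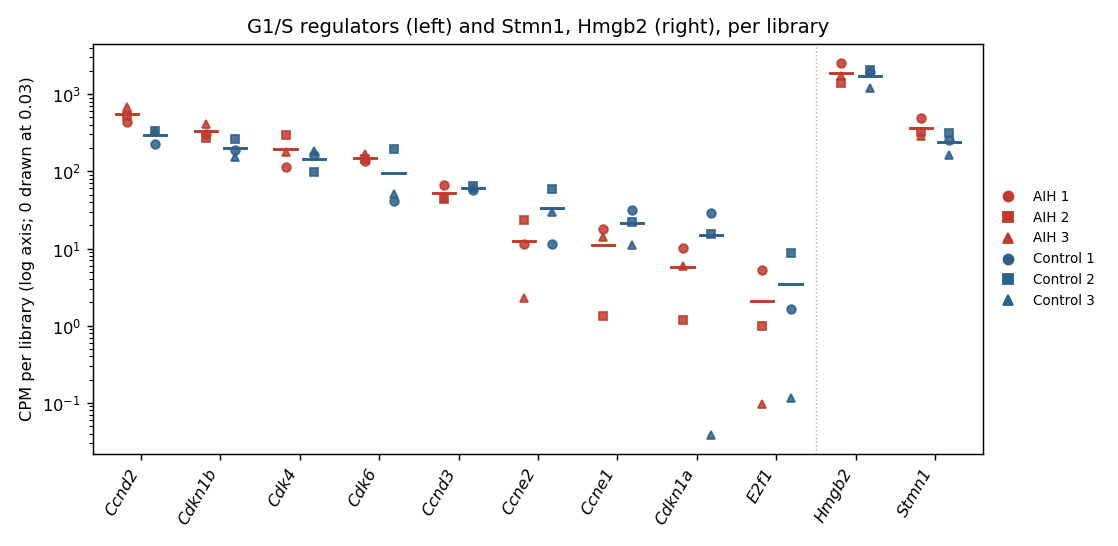
CPM of the 9 regulators of the G1/S transition and of Stmn1 and Hmgb2 in each library on a log axis; symbols are libraries and bars group means, with AIH (red) left of control (blue). Ccnd2 and Cdkn1b are the 2 genes in which no control reaches an AIH library.

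The scatter between libraries was widest for the members of low level. The 22 members with a mean of 50 CPM or more had a median SD of log2(CPM + 1) within groups of 0.447, beside 0.454 over the 3161 genes tested at that level, and their highest library exceeded the lowest by 1.53-fold to 5.18-fold. The 11 members from 20 to under 50 CPM had a median SD of 0.751, beside 0.787 over 2623 genes. The 11 members under 20 CPM had a median SD of 1.51, beside 1.19 over 5356 genes. Of these 11, 6 were mitotic and none was a replication gene of the 10, so the low members weigh on the mitotic mean in particular. Log2 fold changes were positive for 18 of the 22 abundant members, 4 of the 11 in the middle band and 2 of the 11 under 20 CPM. Over all genes tested with a mean of 20 CPM or more, which joins the upper and middle bands, 3253 of 5784 were positive, with a median of 0.11. A share over all genes is not given for any band alone, so the 18 of 22 has no background of like level. These level bands were chosen after the values were seen.

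Other genes of the cell cycle, from 4 lists, were also examined, and none of the 118 tested of 122 listed passed an adjusted p of 0.05 by edgeR's quasi-likelihood test; 6 were higher and none lower at an unadjusted p under 0.05, where 4.42% of all genes tested were higher and 3.85% lower. Of 39 further G2 and mitotic genes tested, 21 had log2 fold changes above 0, the median was 0.09, and the groups did not overlap in 7 (5 with AIH higher), or 17.9% against 17.3% of all genes tested. Ndc80, a kinetochore subunit, was at 33.8 to 60.3 CPM in AIH and 12.7 to 15.6 CPM in control, a log2 fold change of 1.63 (SE 0.58). Kif20b, a kinesin of cell division, was at 14.03 to 48.3 CPM in AIH and 3.02 to 8.21 CPM in control. Ckap2l, a spindle-associated protein gene, was at 18.6 to 39.0 CPM in AIH and 4.28 to 17.2 CPM in control, and Cks2, a small subunit of Cdk1 complexes, at 187 to 549.7 CPM in AIH and 123 to 240.4 CPM in control with overlap. So the share of the wider mitotic list without overlap was near that of all genes tested, and in 2 of the 7 AIH was lower.

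Of 35 further S phase genes tested, 17 had log2 fold changes above 0, and the median was −0.0027; the groups did not overlap in 4 (3 with AIH higher), or 11.4% against 17.3% of all genes tested. Tipin, a replication fork protein, was at 118 to 205 CPM in AIH and 65.9 to 102 CPM in control, and Slbp, which binds histone mRNA, at 270.4 to 373 CPM in AIH and 136 to 263 CPM in control. Orc6, of the origin recognition complex, was at 64.9 to 202 CPM in AIH and 22.7 to 95.5 CPM in control, and Uhrf1, which maintains DNA methylation at replication, at 7.89 to 21.4 CPM in AIH and 20.7 to 49.3 CPM in control; the groups overlapped in both. Of 25 tested genes of the RB, E2F and inhibitor list, 13 had log2 fold changes above 0, and the median was 0.03. The groups did not overlap in 2 of the 25 (1 with AIH higher), or 8% against 17.3% of all genes tested. Lin37, a subunit of the DREAM complex, was at 56.5 to 104 CPM in AIH and 5.47 to 52.7 CPM in control, and E2f2, an activator E2F, at 4.58 to 6.49 CPM in AIH and 6.88 to 41.1 CPM in control. Ccnd1 and Cdkn1c were low, at 0.590 to 4.75 CPM and 0.00 to 1.41 CPM in AIH against 1.19 to 39.1 CPM and 0.459 to 35.5 CPM in control.

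Of 19 checkpoint and p53 genes, 10 had log2 fold changes above 0, and the median was 0.10. The groups did not overlap in 3 of the 19 (2 with AIH higher), or 15.8% against 17.3% of all genes tested. Btg1, an antiproliferative gene of quiescent lymphocytes, was at 972 to 1948 CPM in AIH and 724 to 927 CPM in control, a log2 fold change of 0.83 (SE 0.30). Gadd45b, a stress-inducible gene, was at 57.3 to 112 CPM in AIH and 28.0 to 55.6 CPM in control. Sesn1, a p53 target, was at 77.2 to 100.04 CPM in AIH and 123 to 178 CPM in control, and Cdc25b, a phosphatase that activates Cdk1, at 37.1 to 57.9 CPM in AIH and 53.3 to 79.9 CPM in control.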

How the data were processed

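Gene expression was measured in 6 libraries, 3 labelled AIH and 3 control, grouped by their titles; the title of 1 control varies in spelling and was read as control. Libraries came from SMART-Seq2 amplification of lysed cells, per the labels' protocols. The expected counts deposited by the authors are estimated, not normalized reads per gene or transcript: 14.8 to 16.7% of gene values per library were not whole. TPM values were length-corrected by the authors, per the file headers. Deposited FPKM, the deposited normalized read count (a signal) and the columns of group means were not used. The submitters' processing notes list STAR, featureCounts, FastQC, GRCm39 and mm39, without versions; the program that shared reads among transcripts is not named in these sources. RefSeq (GRCm38.p6) names pseudogenes of Pcna, Tyms, Ccnb1, Ccnb2 and Ccnd3 that the gene table does not list, so reads from them could count toward these genes.

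After rounding, expected counts were tested with edgeR 4.0.16 under R 4.3.3. Settings were TMM, filterByExpr by group with a minimum count of 10 and total of 15, and a quasi-likelihood fit with group as the only term. Benjamini-Hochberg adjustment ran over all genes tested, with a threshold of 0.05. The code was first tried on simulated data. The pass condition of that trial covered dispersions below those estimated here, so it gives no measure of power in these libraries. CPM use TMM library sizes; SE was taken from each fold change and its F statistic and is rough for low genes. Alternatives were DESeq2 1.42.0 and its size factors, library totals, no filter, a block for replicate number, leaving out each library, leaving out AIH 1 and Control 3 together, a pseudocount of 0.1, and TPM. The members, lists and groups were chosen with earlier results of these data known. Values per library are given for the 10 replication genes and, in each other group, for at least the 3 most abundant members and any at an unadjusted p under 0.05; of each wider list, the 4 genes with the smallest p are named. Members given beyond this rule were added after their values were seen.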

Additional observations from a re-analysis of the deposited data

How the results depend on the processing

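None of the 44 genes was called at an adjusted p of 0.05 under any alternative run, while the count over all genes moved: 10 by edgeR's quasi-likelihood test, 10 with DESeq2's size factors, 3 with library totals, 32 with no filter, 0 to 1 with any 1 library left out, 1 without AIH 1 and Control 3 together, and 180 with DESeq2's Wald test. With the replicate number as a block 0 genes were called. By edgeR's quasi-likelihood test with that block, 3 of the 44 had an unadjusted p under 0.05 (Cdk1, Ube2c and Ccnd2). Deviations of same-numbered libraries from their group means correlated at −0.01, −0.03 and 0.15. AIH 1 and AIH 2 correlated best with a control of another number, and AIH 3 with Control 3. With 3 libraries per group, such correlations cannot decide whether same-numbered libraries were paired. No member reached an unadjusted p under 0.05 without AIH 3. Library totals as the scaling moved the median of all genes to −0.23, from −0.041; Cdk1 and Ccnd2 were then the members at an unadjusted p under 0.05. The replication median of 0.03 was −0.17 with library totals, −0.061 without AIH 1 and Control 3 together and from −0.13 to 0.15 with 1 library left out. The mitotic median of 0.36 was 0.18 with library totals, −0.0023 without AIH 1 and Control 3 together and from 0.18 to 1.02 with 1 library left out; Control 2 set its upper end and Control 3 its lower. The replication minus mitotic difference kept its sign throughout, at −0.77 with a pseudocount of 0.1, −0.67 on TPM and from −1.10 to −0.34 with 1 library left out.

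Among the 25 members followed through 12 alternatives, 270 of 300 log2 fold changes kept their sign and 30 did not; the cause was not tested. With library totals the sign turned for Rrm1 (−0.13), Rrm2 (−0.11), Tk1 (−0.0029) and Hmgb2 (−0.075), and with the replicate block for Ccnb2 (−0.028). Without AIH 1 and Control 3 together it turned for Mcm2 (0.10), Mcm3 (0.0087), Rrm1 (−0.20), Rrm2 (−0.14), Tyms (−0.040), Ccnb2 (−0.052), Tk1 (−0.0026) and Hmgb2 (−0.36). With 1 library left out, Mcm2 ranged from −1.15 to 0.25, Mcm4 from −0.57 to 0.28, Mcm7 from −0.22 to 0.14, Rrm1 from −0.16 to 0.33, Rrm2 from −0.067 to 0.23, Cdk4 from −0.010 to 0.68, Ccnb2 from −0.27 to 0.63, Pclaf from −0.35 to 0.21, Tk1 from −0.14 to 0.37, Cdt1 from −0.998 to 0.054 and Hmgb2 from −0.16 to 0.29. Members under 20 CPM had the widest spread, which limits what 3 libraries per group can show of them.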

Other observations

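Transcript estimates were deposited too. Of the 44 genes, 21 had 1 listed transcript and 23 had several; in 7 of the 23 the leading transcript held over 90% of the gene's counts. For abundant Hmgb2 the leading transcript held 83.7, 88.7 and 87.2% in AIH and 87.1, 83.5 and 91.2% in control, a similar share in every library. For Mki67 it held 100, 43.2 and 100% in AIH and 0, 79.1 and 100% in control, and for Top2a 94.1, 85.3 and 0% in AIH and 81.1, 93.9 and 0% in control. Such all-or-none shares differed within groups, so no difference between AIH and control was read from them; error in assigning reads to transcripts is unknown.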
